A study of Mus musculus with 24 samples.

Results

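The Zfp-named genes are the mouse genes that carry the symbol Zfp followed by a number, a naming series used for zinc finger proteins. The 242 members described here were the protein-coding genes of that form, Zfp36 left out, whose mean level over all 24 libraries was 2 or more CPM, the unit that scales a gene's counts by the library's total count. They were 242 of 364 Zfp-named protein-coding genes in the files, and 242 of 15128 genes tested in all. The other 122 had means under 2 CPM, and 9 of these had no read in any library. The members were thus chosen by their mean CPM in the same libraries, so their overall level is given as a description only. Just inside the limit were Zfp287 at 2.01, Zfp688 at 2.02 and Zfp605 at 2.02 CPM, and just outside it were Zfp976 at 1.99, Zfp992 at 1.94 and Zfp661 at 1.90 CPM. All 242 passed the filter on low counts. CPM values of single genes in single libraries, given below, were further scaled by TMM factors. Mean CPM over all libraries, the floor in CPM and the sums of marker genes were scaled by total count alone.

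The data came from RNA sequencing of heart tissue of wild-type C57BL/6 mice. There were 8 groups of 3 libraries. The hearts were sham-operated, made ischemic for 45 min with no reperfusion, or reperfused after that ischemia, for 0.5, 1, 1.5, 3, 6 or 12 h. The labels give the sham group no time after surgery, so time since surgery and time of reperfusion cannot be told apart. Whether each library came from its own mouse is not stated in the labels, so every p-value refers to the spread among these samples, part of which may be technical. In tissue RNA, fewer cells of a type and less RNA per cell cannot be told apart.

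Most Zfp proteins bind DNA through tandem C2H2 zinc fingers, in which a pair of cysteines and a pair of histidines hold a zinc ion and each finger reads a short stretch of bases. Many also carry a KRAB domain, which recruits the co-repressor TRIM28, and through it the histone methyltransferase SETDB1 and heterochromatin proteins. KRAB zinc finger genes lie in tandem clusters, and many of their products silence transposable elements and imprinted loci. The Zfp symbol also covers proteins that do other work, among them RNA-binding proteins and ubiquitin ligases.

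Sequence features were read from the annotated coding sequences of the members. In their longest coding sequences, 230 of 242 held 2 or more C2H2 fingers, with a median of 10 and a range of 0 to 40, and 134 held 10 or more. A pattern of the KRAB A box was found in 116 members, and these had a median of 12 fingers and a median level of 4.86 CPM. The 126 members without the pattern had a median of 8 fingers and a median level of 13.8 CPM. Below, KRAB members are those in which the pattern was found. A KRAB domain that the pattern missed, or that lies outside the longest coding sequence, would leave its gene among the 126. Those members are therefore not shown to lack the domain, and how many carry it was not tested. On the per-length scale of the deposited RPKM values, the most abundant members were Zfp106 (40.5 RPKM as the mean of all libraries), Zfp706 (16.9), Zfp651 (15.6), Zfp91 (10.9) and Zfp358 (10.7). Chromosome 7 held 60 members, chromosome 17 held 33 and chromosome 8 held 18. The annotation of 103 members overlapped another gene, and strand use in counting is not stated, so their reads may in part belong to the neighbour. For 6 members, over 10% of reads mapped to several places (Zfp960, Zfp982, Zfp991, Zfp97, Zfp617 and Zfp970), and their values are uncertain.

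A run of KRAB members on chromosome 17 is shown here by its promoters, because 3 of its neighbouring genes share short stretches of upstream sequence and 2 of them went up while most of the run went down. The run spanned chr17:21450374-22456689 (mm10), with 12 members no more than 200 kb apart, all 12 with the KRAB pattern. The sequences are the 250 bases before the annotated start of Zfp53 (chr17:21488738-21488987), Zfp52 (chr17:21535289-21535538), Zfp948 (chr17:21566728-21566977) and Zfp760 (chr17:21707491-21707740), from RefSeq on GRCm38.p6, plus strand, 5′ to 3′. Capitals mark stretches of 10 or more bases shared by Zfp53, Zfp52 and Zfp948.
Zfp53: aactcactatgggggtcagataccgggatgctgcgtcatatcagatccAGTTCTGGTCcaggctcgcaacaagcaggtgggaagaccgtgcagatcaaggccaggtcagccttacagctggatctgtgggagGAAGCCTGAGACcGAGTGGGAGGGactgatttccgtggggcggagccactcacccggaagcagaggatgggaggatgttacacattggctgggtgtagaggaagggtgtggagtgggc
Zfp52: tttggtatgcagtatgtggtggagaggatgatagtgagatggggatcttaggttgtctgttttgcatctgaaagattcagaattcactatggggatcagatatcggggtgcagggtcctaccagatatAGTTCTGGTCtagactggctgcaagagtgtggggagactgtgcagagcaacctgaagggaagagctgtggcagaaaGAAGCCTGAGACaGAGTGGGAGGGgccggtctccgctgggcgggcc
Zfp948: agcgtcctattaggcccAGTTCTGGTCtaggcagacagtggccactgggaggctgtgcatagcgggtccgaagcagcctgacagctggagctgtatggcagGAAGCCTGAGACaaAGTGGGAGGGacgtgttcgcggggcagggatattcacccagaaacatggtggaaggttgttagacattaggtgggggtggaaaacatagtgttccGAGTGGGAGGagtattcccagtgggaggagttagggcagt
Zfp760: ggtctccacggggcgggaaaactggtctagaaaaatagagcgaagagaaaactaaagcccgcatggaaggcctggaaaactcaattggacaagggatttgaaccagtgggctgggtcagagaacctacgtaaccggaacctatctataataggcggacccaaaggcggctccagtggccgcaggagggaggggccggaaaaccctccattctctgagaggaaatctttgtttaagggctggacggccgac
The shared stretches were AGTTCTGGTC, found in 25 of 27025 RefSeq promoter entries searched (0.0925%), GAAGCCTGAGAC in 5 (0.0185%), GAGTGGGAGG in 109 (0.403%) and AGTGGGAGGG in 136 (0.503%). The stretches were taken from the 3 promoters of Zfp53, Zfp52 and Zfp948, so that these 3 held all 4 was given by that choice. No other entry of the 27025 held all 4. In Zfp53 and Zfp52, GAGTGGGAGG and AGTGGGAGGG overlap and are not separate matches. The promoter of Zfp760, in the same run, held none of them. That of Zfp946, the last member of the run, is not printed and held GAGTGGGAGG and AGTGGGAGGG, so these stretches were not confined to the 3 genes. Aligned over the whole 250 bases, identity was 58.8% for Zfp53 and Zfp948, 49.3% for Zfp52 and Zfp948 and 40.4% for Zfp53 and Zfp52. It was 49.3% to 50.3% for each of them to Zfp760. The shared stretches lie at different distances from the annotated starts, so these whole-window values do not measure how alike the promoters are around them. Just before AGTTCTGGTC, the letters of Zfp53 and Zfp52 also match at most positions. These matches describe the letters in the window and identify no binding site.

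The libraries held 13407465 to 17181458 uniquely mapped counts, of which 42927 to 80351, or 0.286% to 0.468%, fell on the members. A floor of 3 counts was worth 0.175 to 0.224 CPM. Mitochondrial genes took 19.0% to 33.2% of counts, and 39.2% to 54.5% of reads were marked as duplicates. Both were higher in sham, at means of 31.0% mitochondrial and 52.6% duplicates, than in the reperfusion groups, whose means were 20.0% to 26.4% and 42.9% to 49.4%. Ischemia replicate 3 was at 19.0% and 41.2%, against 30.2% and 52.7% in replicate 1 and 29.7% and 54.5% in replicate 2. Their part in the results was not tested. Cardiomyocyte markers were at 73795 to 81991 CPM in all in sham and 75173 to 87925 at 3 h, so the tissue label and the markers matched. Their sum was 64739 to 76872 CPM at 6 h. At 12 h it was 62966 to 66665 CPM, below every sham library. In the ischemia group, replicate 3 stood apart from the others for the KRAB members, as given in the next paragraph, and results that rest on that group are given with and without it. The 8 summed neutrophil markers were at 3.42 to 6.12 CPM in sham, 8.75 to 29.6 at 3 h, 64.0 to 148 at 6 h and 59.2 to 75.5 at 12 h. The 8 summed fibroblast markers were at 1297 to 1397 CPM in sham and 513 to 850 at 6 h. The 8 summed lymphocyte markers were at 20.3 to 24.6 CPM in sham, 23.7 to 25.4 in ischemia, 15.4 to 17.9 at 0.5 h, 14.2 to 15.4 at 1.5 h and 10.7 to 13.7 at 3 h, with 19.0 ± 6.56 (SD, n = 3) at 12 h and no marker at 0 in any group. The part of cell composition in the results on the members was not tested.

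KRAB members as a group were lower from 0.5 to 6 h of reperfusion and lowest at 3 h. At 12 h they were slightly below sham with TMM scaling (median of fitted log2 fold changes -0.16) and slightly above it when scaled to library totals (0.06). With TMM scaling, per library, the median over the 116 KRAB members of the log2 ratio to the sham mean was -0.02, 0.02 and 0.02 in sham, and -0.03, -0.12 and -0.52 in ischemia. It was -0.51, -0.43 and -0.56 at 0.5 h, -0.58, -0.45 and -0.42 at 1 h, and -0.60, -0.61 and -0.80 at 1.5 h. At 3 h it was -0.65, -1.16 and -1.01, at 6 h it was -0.53, -0.54 and -0.21, and at 12 h it was -0.16, -0.10 and -0.15. On this scaling every reperfusion library lay below all 3 sham libraries, and ischemia replicate 3 lay among the early reperfusion libraries while the other ischemia libraries did not. The members without the pattern were at -0.12, -0.37 and -0.27 at 3 h. These ratios are on the log2(CPM + 0.5) scale, which understates changes of low genes.

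**Figure D1:**
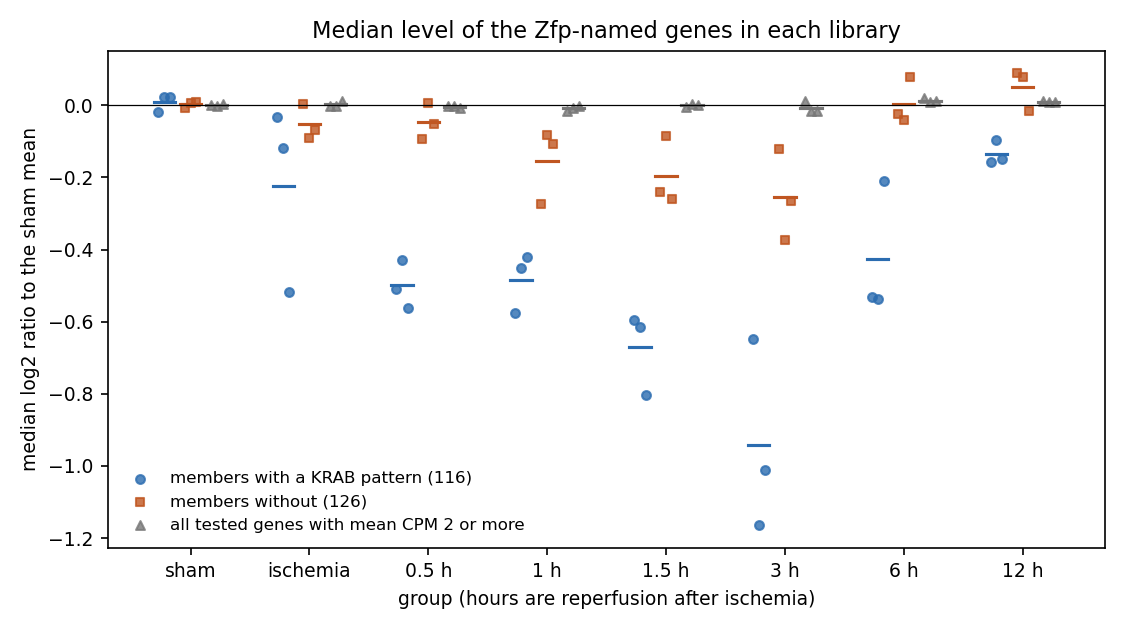
Median log2 ratio to the sham mean, on the log2(CPM + 0.5) scale, of the 116 KRAB members and the 126 other members in each of the 24 libraries; each point is 1 library and the x axis is the treatment group. The 3 h libraries held the lowest KRAB medians, down to -1.16, and the 12 h libraries lay between -0.16 and -0.10 with the TMM scaling plotted; scaled to library totals, the KRAB median of fitted changes at 12 h was 0.06.

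Ischemia alone called no member in either direction by edgeR's quasi-likelihood test at an adjusted p under 0.05, while 13 members had an unadjusted p under 0.05. DESeq2 and limma-voom also called 0 members. Of all genes tested, 0.0925% were called, all of them higher. The members' median log2 fold change was -0.13. It was -0.05 without ischemia replicate 3, -0.20 without ischemia replicate 1 and -0.05 when scaled to library totals, with 0 members called each time. The KRAB median lay between -0.34 and -0.09 when any 1 library was left out.

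From 0.5 to 1.5 h the called changes of members were mostly falls. At 0.5 h, 6 members were called higher and 42 lower, a median of -0.30, beside 7.43% of all genes higher and 4.48% lower (11.9% in either direction). Of the 11990 tested genes at 2 CPM or more, the members' own limit, 8.71% were higher and 5.15% lower at 0.5 h. At 1 h these shares were 8.66% and 3.78%, and at 1.5 h 5.01% and 3.13%. The falls of members at 0.5 h were 30 of 116 KRAB members and 12 of 126 others, and all 6 rises were members without the pattern. Scaled to library totals, the split was 7 higher and 21 lower, with the median of all genes moved by 0.13, and the falls were 17 KRAB members and 4 others. A fit of the 2 groups alone called 15 higher and 82 lower, of which 57 were KRAB members and 25 others. Without sham replicates 1, 2 and 3 in turn the lower count was 24, 23 and 21, and without 0.5 h replicates 1, 2 and 3 it was 22, 27 and 14. Among KRAB members it was 19 and 16 without sham replicates 2 and 3, and 18 and 12 without 0.5 h replicates 1 and 3, and among the others it was 2 to 6 when any of those 6 libraries was dropped. The higher count was 3 and 2 without sham replicates 1 and 3, and 3, 2 and 2 without 0.5 h replicates 1, 2 and 3.

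At 1 h, 2 members were called higher and 41 lower, a median of -0.31, beside 7.46% and 3.41% of all genes (10.9% in either direction), and 27 of the falls were KRAB members. Scaled to library totals, 26 were lower, 19 of them KRAB members. The lower count was 22, 21 and 23 without sham replicates 1, 2 and 3 in turn, and 16 without 1 h replicate 1. For KRAB members alone it was 15, 14, 14 and 11 in the same order. At 1.5 h, 4 members were called higher and 62 lower, a median of -0.43, beside 4.55% and 2.99% of all genes (7.54% in either direction), and 49 of the falls were KRAB members. The lower count was 39 without 1.5 h replicate 1 and 30 without 1.5 h replicate 3, of which 32 and 25 were KRAB members. The higher count at 1.5 h was 0, 0 and 1 without sham replicates 1, 2 and 3 in turn, and 2 and 0 without 1.5 h replicates 1 and 3.

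At 3 h the falls reached their highest count. Of the 242 members, 124 were called lower and 20 higher, a median log2 fold change of -0.59, beside 16.9% of all genes lower and 18.4% higher (35.3% in either direction). Of the 11990 tested genes at 2 CPM or more, 18.9% were lower and 20.7% higher. KRAB members made up 80 of the falls and 3 of the rises, with a median of -1.06, while the members without the pattern gave 44 falls and 17 rises with a median of -0.25. Leaving out each library in turn gave 73 to 83 KRAB members lower and medians of -1.17 to -0.96. In 140 of 242 members (57.9%) all 3 libraries at 3 h lay below all 3 sham libraries, against 23.3% of all genes, and among KRAB members the number was 85 (73.3%). The group with the lowest mean was 3 h for 108 of 242 members and for 68 of the 116 with the KRAB pattern.

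**Figure D2:**
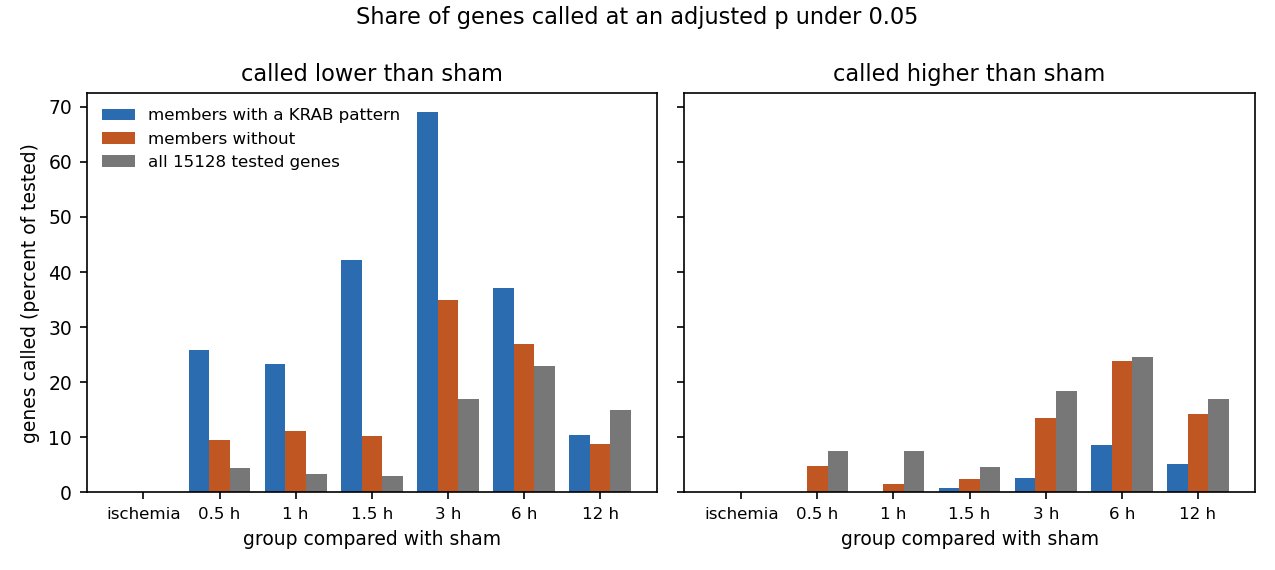
Percent of the KRAB members, of the other members and of all genes tested that were called higher or lower against sham at each time (edgeR, adjusted p under 0.05). At 3 h, 80 of 116 KRAB members were called lower, and at 12 h 12 were.

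The largest fall at 3 h was that of Zfp759, a zinc finger gene at chr13:67121660-67141787 on the plus strand (mm10, as are the coordinates that follow). It was at 4.88, 4.32 and 5.12 CPM in sham and at 0.602, 0.296 and 0.260 CPM at 3 h. All 3 libraries at 3 h lay close to the floor of 3 counts and far below sham, a log2 fold change of -3.57 ± 0.40 (SE, n = 3 a group; adjusted p = 5.28e-07, edgeR). At 6 h it was at 1.30, 1.65 and 1.68 CPM, above every 3 h library and below every sham library (6 h against 3 h, 1.95 ± 0.43, adjusted p = 0.0016). Zfp113, a KRAB member at chr5:138139702-138155744 on the minus strand, was at 7.71, 9.25 and 8.39 CPM in sham. Its 3 h libraries held 1.39, 1.04 and 1.37 CPM, a log2 fold change of -2.73 ± 0.34 (adjusted p = 2.21e-06) with no overlap. It was back at 6.87, 7.43 and 5.97 CPM at 12 h, where it was not called against sham (-0.32 ± 0.29).

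Zfp128, a KRAB member at chr7:12881177-12893422, was at 3.92, 3.90 and 3.68 CPM in sham and at 0.964, 0.296 and 0.455 CPM at 3 h. The groups did not overlap, and the log2 fold change was -2.69 ± 0.36. At 6 h its libraries held 3.43, 1.95 and 2.80 CPM, a rise from 3 h of 2.20 ± 0.36 on the log2 scale (adjusted p = 9.1e-05), the largest called rise of any member between those times. Zfp60, a KRAB member at chr7:27731389-27753702, was at 13.0, 13.9 and 9.19 CPM in sham and at 3.73, 1.63 and 0.910 CPM at 3 h. Its fall at 3 h was -2.50 ± 0.34. It was already called lower at 1 h and at 1.5 h (-1.76 ± 0.33), with all 3 libraries below sham at both times. The call at 1 h was lost under 3 alternatives. Zfp935, whose annotation overlaps 6 other genes, was at 3.98, 3.77 and 4.08 CPM in sham and at 0.662, 0.666 and 0.910 CPM at 3 h. The log2 fold change of Zfp935 at 3 h was -2.39 ± 0.32.

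The fall of some members was already called at 0.5 h. Zfp617, a KRAB member with 13.0% of its reads multiply mapped, was at 25.6, 21.2 and 31.7 CPM in sham and at 11.9, 14.5 and 9.35 CPM at 0.5 h. Every 0.5 h library lay below every sham library (-1.14 ± 0.20). Zfp748 went from 4.56, 5.75 and 6.00 CPM to 2.00, 2.51 and 2.19 CPM at 0.5 h, again with no overlap (-1.28 ± 0.29). Zfp809, a KRAB protein that silences retroviral DNA by binding the proline tRNA primer site, was at 15.3, 13.4 and 14.6 CPM in sham and 8.44, 9.10 and 8.70 CPM at 0.5 h. Zfp809 was lower than sham at 0.5 h (-0.72 ± 0.15) and at 3 h (-0.72 ± 0.15), and was at 14.9, 13.9 and 15.3 CPM at 12 h, overlapping sham. Zfp799, a KRAB member among the 6 members with the smallest p across the 8 groups, was at 14.8, 13.6 and 14.2 CPM in sham and 3.67, 2.81 and 2.67 CPM at 3 h. It fell by 2.21 on the log2 scale at 3 h (SE 0.22) and had not reached the sham libraries at 12 h, with 8.02, 7.53 and 7.96 CPM (-0.85 ± 0.20). Zfp931 was also below sham at 12 h, at 2.97, 3.28 and 3.13 against 8.73, 6.71 and 6.40 CPM (-1.22 ± 0.24), and Zfp612 had a log2 fold change of -1.01 ± 0.22 there.

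**Figure D3:**
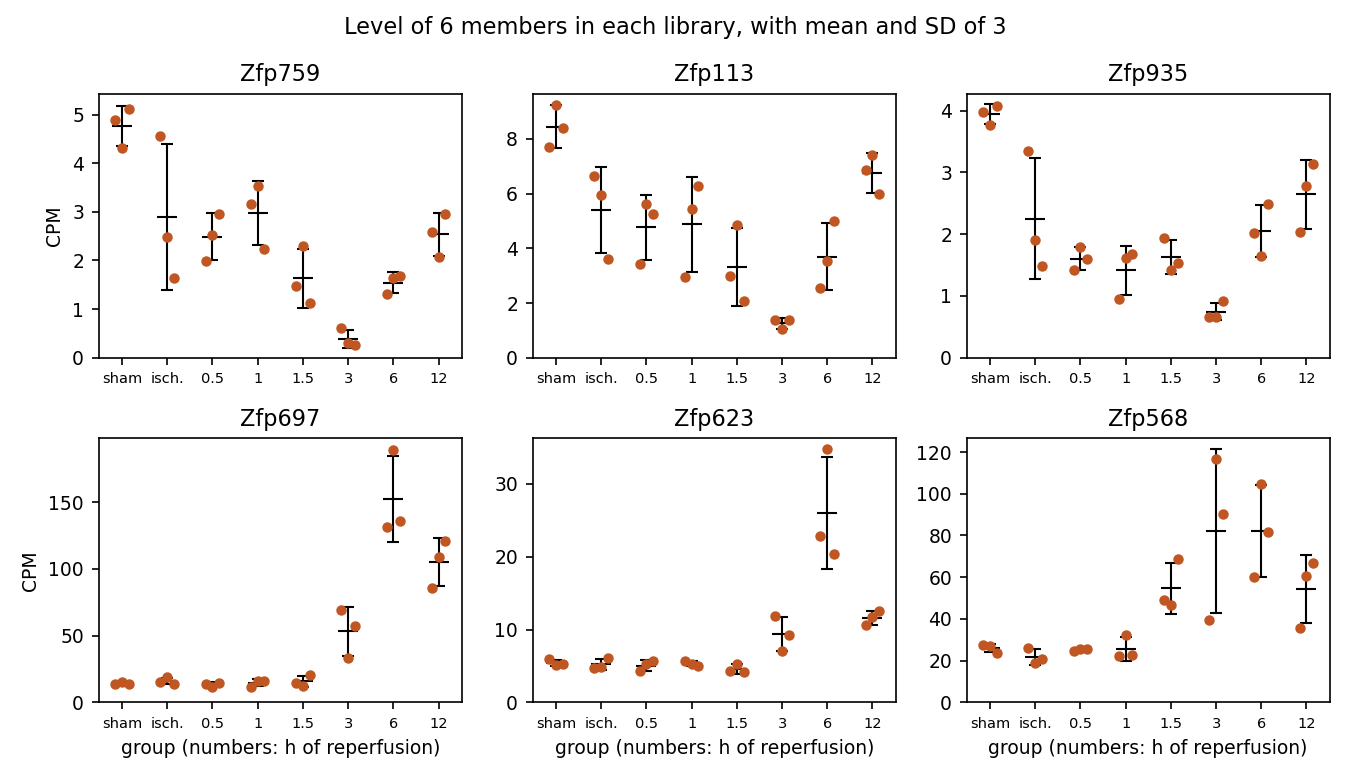
CPM of Zfp759, Zfp113, Zfp935, Zfp697, Zfp623 and Zfp568 in each of the 24 libraries by group; points are libraries, and bars give the mean and SD of 3. The first 3 were lowest at 3 h, whereas Zfp697, Zfp623 and Zfp568 were higher at 3 and 6 h than in sham.

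Among the members called higher, Zfp697 changed most. The gene encodes an RNA-binding protein known from inflamed and remodelling skeletal muscle, and lies at chr3:98382461-98753812, where its annotation overlaps 13 genes that held 216 reads in all against 19223 for Zfp697. It was at 13.4, 15.3 and 14.1 CPM in sham, and at 69.4, 33.1 and 57.2 CPM at 3 h. At 6 h it was at 131, 189 and 136 CPM and at 12 h at 85.6, 109 and 121 CPM. Its libraries at 3, 6 and 12 h all lay above every library of sham, ischemia and the earlier times. The log2 fold changes against sham were 1.90 ± 0.22, 3.41 ± 0.23 (adjusted p = 1.57e-10) and 2.88 ± 0.23 at these times.

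Zfp623, a 12-finger member without the KRAB pattern at chr15:75940952-75949400, was at 5.91, 5.14 and 5.28 CPM in sham, 11.9, 7.10 and 9.23 CPM at 3 h and 22.8, 34.8 and 20.4 CPM at 6 h. All 6 h libraries lay above all 3 h libraries, and all 3 h libraries above sham. The log2 fold change at 6 h was 2.25 ± 0.20 against sham, and from 6 to 12 h it fell by 1.16 on the log2 scale (SE 0.19). Zfp568, a KRAB repressor of the placental promoter of Igf2, was among the few KRAB members called higher. It was at 27.5, 27.1 and 23.8 CPM in sham, 39.6, 117 and 90.4 CPM at 3 h and 60.2, 104 and 81.8 CPM at 6 h. Its 3 h libraries differed widely, and all lay above sham (1.65 ± 0.28 at both 3 and 6 h).

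Members with roles outside KRAB silencing also rose. Zfp703, a transcriptional repressor in which no C2H2 finger was found, was at 9.37, 9.38 and 9.91 CPM in sham and 26.7, 19.9 and 36.4 CPM at 3 h (1.54 ± 0.23), with no overlap. Zfp598, the ubiquitin ligase that marks collided ribosomes, was at 23.4, 23.6 and 22.3 CPM in sham and 49.4, 57.4 and 48.3 CPM at 6 h. Its log2 fold change at 6 h was 1.16 ± 0.12 (adjusted p = 5.66e-08). Zfp622, a factor in the making of the large ribosomal subunit, was at 14.3, 14.7 and 17.5 CPM in sham and at 24.1, 24.1 and 26.2 CPM at 6 h (0.68 ± 0.14). Zfp217, known as an oncogene in breast cancer, was at 12.3, 14.2 and 13.9 CPM in sham and 26.3, 22.1 and 25.1 CPM at 3 h (0.86 ± 0.15). Zfp281, a regulator of pluripotency, was at 15.3, 13.8 and 14.5 CPM in sham and 29.0, 21.4 and 26.7 CPM at 3 h (0.82 ± 0.15). In each of these genes the libraries named did not overlap with sham.

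Some members without the KRAB pattern also fell at 3 or 6 h. Zfp148, which binds GC-rich promoter elements, was at 43.2, 44.5 and 47.5 CPM in sham and 32.9, 30.9 and 25.9 CPM at 3 h (-0.59 ± 0.16). Zfp638, which takes part with the HUSH complex in silencing retroviral DNA, was at 48.9, 39.8 and 46.6 CPM in sham and 29.5, 24.3 and 23.5 CPM at 3 h (-0.81 ± 0.19). Zfp292 had a log2 fold change of -0.68 ± 0.18 at 3 h. Zfp521, which binds EBF factors in progenitor cells, was at 19.3, 21.0 and 21.1 CPM in sham and 7.63, 7.68 and 6.54 CPM at 6 h, and its 12 h libraries, at 21.8, 17.1 and 20.3 CPM, overlapped sham. Its log2 fold change was -1.49 ± 0.16 at 6 h, and it rose by 1.44 ± 0.16 from 6 to 12 h. Zfp536, known for its part in neuronal differentiation, was at 6.29, 6.99 and 4.96 CPM in sham and 1.30, 0.488 and 1.18 CPM at 6 h (-2.61 ± 0.32), the largest fall of any member at 6 h.

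Zfp106, an RNA-binding protein whose loss causes neuromuscular degeneration in mice, was at 564, 618 and 592 CPM in sham and 507, 703 and 569 CPM at 3 h, with overlap (0.00 ± 0.12). Zfp207, a partner of Bub3 in spindle assembly, was at 81.2, 80.2 and 81.0 CPM in sham and 44.7, 51.6 and 47.7 CPM at 0.5 h, below sham in every library (-0.75 ± 0.16). At 12 h Zfp207 was at 87.9, 113 and 102 CPM, above every sham library but not called (0.32 ± 0.16, adjusted p = 0.13). Zfp706, a single-finger protein, passed the test against sham at no time, and its log2 fold changes lay between -0.25 and -0.02. Zfp57, which maintains imprints, and Zfp189 were called against sham at no time either.

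**Figure D4:**
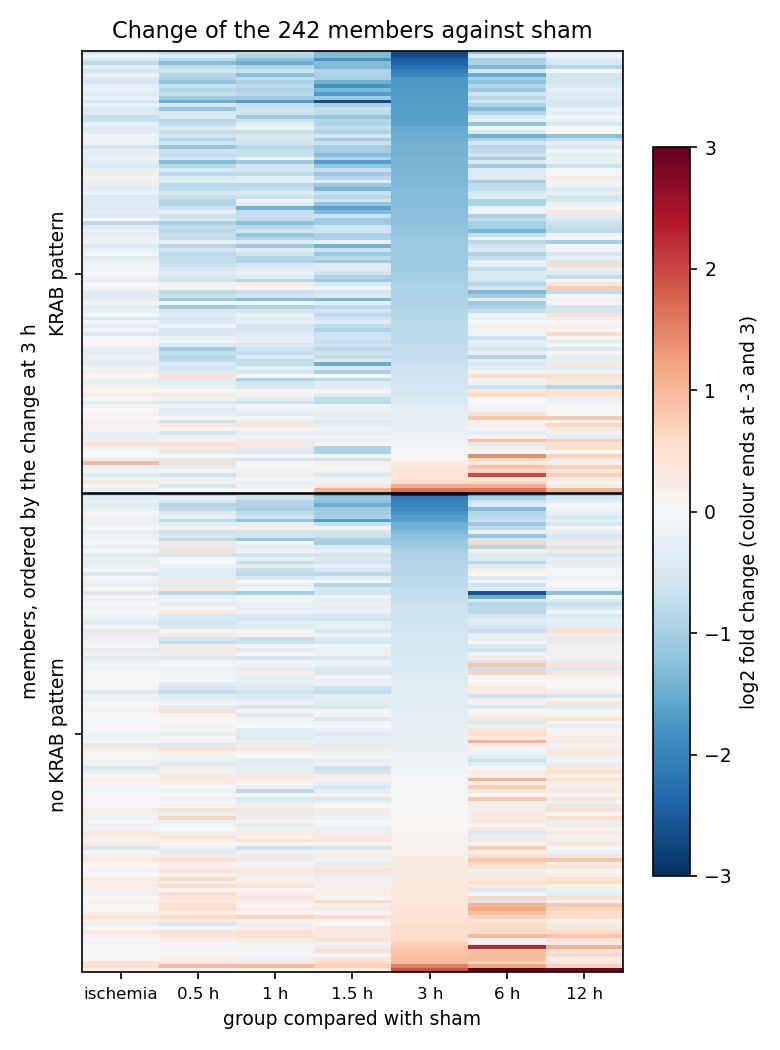
Fitted log2 fold change against sham of all 242 members, 1 line each, in the 7 other groups; blue is lower, red is higher, and members are ordered by KRAB pattern and then by the change at 3 h. The KRAB members, in the upper block, are mostly blue from 0.5 to 3 h and paler at 12 h, where their median turned positive when scaled to library totals; the order at 3 h follows from the sorting.

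At 6 h the falls were fewer and the rises more. There were 40 members higher and 77 lower against sham, a median of -0.24, beside 24.6% of all genes higher and 22.9% lower (47.4% in either direction). Of the 11990 tested genes at 2 CPM or more, 27.3% were higher and 24.5% lower. In either direction 51.9% of those genes were called, beside 48.3% of the members. KRAB members gave 10 rises and 43 falls with a median of -0.46, and the others gave 30 rises and 34 falls with a median of 0.01. The KRAB rises at 6 h were 6 with 6 h replicate 2 dropped, and included Zfp52 (1.97 ± 0.25) and Zfp948 (1.10 ± 0.21). In the direct comparison of 6 h with 3 h, 73 members were called higher and 7 lower, a median of 0.38, beside 14.7% and 13.2% of all genes (27.9% in either direction). Among tested genes at 2 CPM or more the shares were 16.6% and 14.2%. Of the KRAB members, 42 rose from 3 to 6 h and 0 fell, and 54 had an unadjusted p under 0.05. DESeq2 called 43 rises and 0 falls among them and limma-voom 38 and 0, and a fit of the 2 groups alone called 21 and 0. Without 3 h replicate 3 the count of members called higher was 48, and the KRAB count was 25, 26 and 27 with 3 h replicate 2, 3 h replicate 3 and 6 h replicate 3 dropped in turn. These comparisons share libraries with those against sham.

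At 12 h, 24 members were called higher and 23 lower, a median of -0.04, beside 16.9% and 14.9% of all genes (31.8% in either direction). Among the 11990 tested genes at 2 CPM or more the shares were 18.8% and 16.6%. KRAB members gave 6 rises and 12 falls with a median of -0.16. Scaled to library totals the split was 46 higher and 9 lower and the members' median 0.17, with the median of all genes moved by 0.22. The KRAB members then gave 14 rises and 7 falls with a median of 0.06, so their direction at 12 h turned with the scaling, and the others gave 32 rises and 2 falls with a median of 0.24. The higher count was 13 without sham replicate 2 and 13 without sham replicate 3, and the lower count was 15 without 12 h replicate 1. The KRAB rises were 3 and 2 with sham replicates 2 and 3 dropped, 2 with 12 h replicate 2 dropped and 10 with 3 h replicate 1 dropped. From 6 to 12 h, 23 members rose and 9 fell, beside 6.49% and 6.68% of all genes (13.2% in either direction), and scaled to library totals 42 rose and 3 fell, with the median of all genes moved by 0.17. Those counts were 8 and 3 without 6 h replicate 2, 14 and 5 without 12 h replicate 1, and 14 members higher without 12 h replicate 2.

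Between neighbouring early times few members were called. From ischemia to 0.5 h, edgeR called 0 members, 52 had an unadjusted p under 0.05, and DESeq2 called 0 higher and 1 lower, beside 0.0331% of all genes higher and 0% lower. Without ischemia replicate 3 the same comparison called 8 members higher and 28 lower. From 0.5 to 1 h 0 members were called and 16 had an unadjusted p under 0.05, beside 0% of all genes in each direction. From 1 to 1.5 h 0 members were called, 24 had an unadjusted p under 0.05, and DESeq2 called 1 higher, beside 0.0529% of all genes higher and 0.0132% lower (0.0661% in either direction). From 1.5 to 3 h, 10 members rose and 20 fell, beside 5.36% and 3.17% of all genes (8.53% in either direction). Those last counts were 4 and 5 with the 2 groups alone, 5 and 13 scaled to library totals, and 7 and 12 by limma-voom. They were 4 and 7 without 1.5 h replicate 1, 4 and 5 when 1.5 h replicate 2 was dropped, and 4 and 4 when 3 h replicate 3 was. The rises alone were 6 without 1.5 h replicate 3, 4 with 3 h replicate 1 dropped and 17 with 3 h replicate 2 dropped. Across all 8 groups, 188 of 242 members (77.7%) were called by the F test, beside 64.3% of all genes and 70.4% of those at 2 CPM or more.

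In the chromosome 17 run whose promoters are printed above, most members fell and 2 neighbours rose. At 3 h, 9 of the 12 were called lower and 1 higher, with a median of -1.01, and at 6 h 6 were lower and 2 higher. Of all genes, 16.9% were lower and 18.4% higher at 3 h, and 22.9% and 24.6% at 6 h. Zfp948 was at 9.50, 6.78 and 9.03 CPM in sham and 21.2, 16.3 and 17.4 CPM at 3 h, with no overlap (1.12 ± 0.21). Zfp52 was at 5.27, 9.18 and 7.92 CPM in sham, 12.7, 6.36 and 10.4 CPM at 3 h and 22.6, 32.7 and 32.0 CPM at 6 h. It overlapped sham at 3 h (0.41 ± 0.25) and not at 6 h, where it rose from 3 h by 1.56 ± 0.24 on the log2 scale. Zfp53, which shares the printed stretches with both, was not called against sham at 3 h (-0.61 ± 0.29) or at 6 h (0.08 ± 0.28). Zfp760, which lacks them, was at 4.30, 3.70 and 3.92 CPM in sham and 2.47, 0.370 and 0.780 CPM at 3 h (-1.68 ± 0.51), and 1 of its 1.5 h libraries held 0.0668 CPM, under the floor. Leaving out 3 h replicate 2 or 3 the adjusted p of Zfp760 at 3 h was 0.0635 and 0.0696, within a range of 2.77e-05 to 0.0696 over all settings tried.

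**Figure D5:**
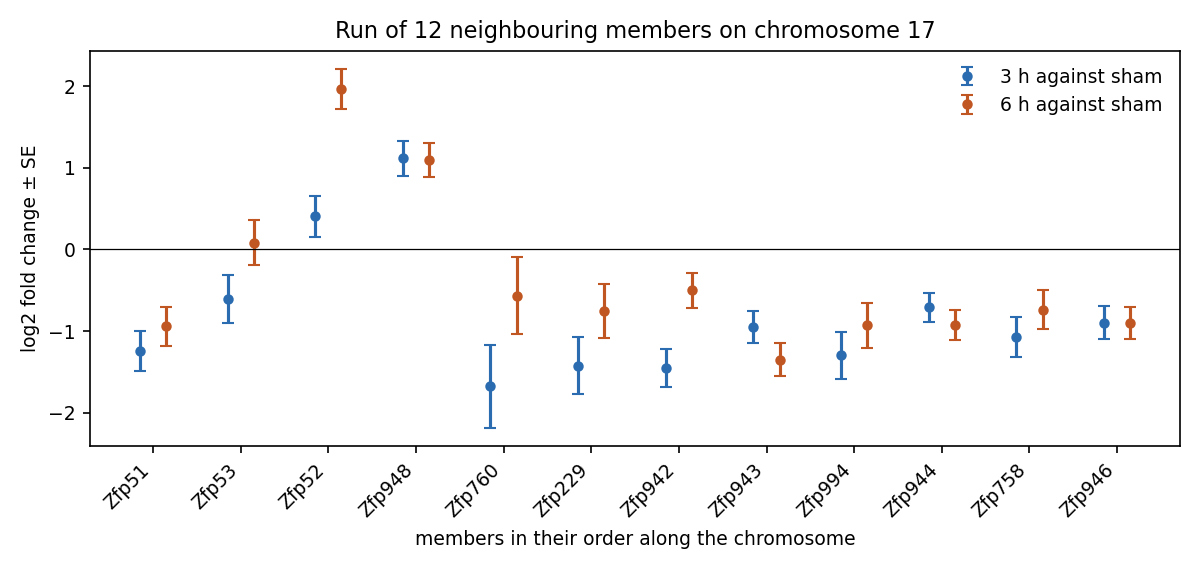
Log2 fold change against sham, with its SE, of the 12 members of the chromosome 17 run at 3 h and 6 h, in their order along the chromosome. Zfp52 and Zfp948 lie above 0 at both times, and most of the others lie below 0.

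There were 12 such runs of 4 or more members, holding 76 members, 54 of them with the KRAB pattern. The shares of all genes lower and higher were 16.9% and 18.4% at 3 h and 22.9% and 24.6% at 6 h. From 3 to 6 h 14.7% of all genes rose. A run of 6 members at chr13:67121660-67729173, from Zfp759 to Zfp65 and with 5 KRAB members, had 5 members called lower at 3 h and a median of -1.37, and 4 rose from 3 to 6 h. The run of 11 on chromosome 7 that holds Zfp568 (chr7:29768552-30169750) had 5 lower and 1 higher at 3 h, a median of -0.52, and 4 higher and 2 lower at 6 h. A run of 6 members at chr7:4915217-5053723, from Zfp628 to Zfp580 and with no KRAB pattern, had 1 lower and 2 higher at 3 h and a median of 0.04. Zfp628, in that run, was at 7.96, 6.51 and 7.20 CPM in sham and 13.7, 14.4 and 15.2 CPM at 3 h (1.00 ± 0.18), with no overlap.

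Level and finger number differed between KRAB members and the rest, so the falls at 3 h are also given within strata. The shares of all genes were 16.9% lower and 18.4% higher. Of the 80 members with mean CPM of 2 to 5, 54 were lower and 0 higher (median -1.09), of 61 at 5 to 10 CPM 33 were lower and 4 higher (-0.75), and of 101 at 10 CPM or more 37 were lower and 16 higher (-0.25). Among the 22 KRAB members at 10 CPM or more, 12 were lower and 2 higher, with a median of -0.67. The 51 members without the KRAB pattern but with 10 or more fingers gave 19 lower and 7 higher, a median of -0.40. With the 6 members of over 10% multiply mapped reads left out, 119 of 236 were lower (-0.56), and of the 139 with no overlapping gene 73 were lower and 11 higher (-0.67). The part of expression level in the difference between KRAB and other members was not tested.

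Genes of the co-repressor machinery that KRAB proteins recruit were counted in the same way. Of its 22 genes, 11 were called lower and 1 higher at 3 h, a median of -0.40, beside the 16.9% lower and 18.4% higher of all genes. Trim28 itself was at 63.4, 55.8 and 51.8 CPM in sham and 67.9, 62.2 and 59.9 CPM at 3 h, overlapping sham (0.15 ± 0.10, adjusted p = 0.25), and was higher at 6 h (0.39 ± 0.10). Setdb1 was at 24.7, 24.2 and 24.6 CPM in sham and 17.9, 10.8 and 11.8 CPM at 3 h, below sham in every library (-0.86 ± 0.15), and rose from 3 to 6 h (0.93 ± 0.15). Smarcad1, a chromatin remodeller, and Fam208a, the HUSH subunit also called Tasor, had log2 fold changes of -1.26 ± 0.17 and -0.99 ± 0.19 at 3 h.

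Other zinc finger families are given for comparison, with no test of the difference. Among all genes at 3 h, 16.9% were lower and 18.4% higher. At 3 h, 10 of 36 Zbtb genes were lower and 8 higher (median -0.19), and 7 of 15 Zscan and Zkscan genes were lower and 2 higher (-0.54). Of 16 genes with a Zfp symbol ending in a letter, 14 were lower and 0 higher (-1.23). Of 17 Zc3h genes, whose CCCH fingers bind RNA, 3 were lower and 5 higher (0.08).

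Motifs of the cyclic AMP and AP-1 factors, which act in stressed tissue, were counted in the promoters. RefSeq entries of 300 bases, from 250 before to 50 after the start, were found for 199 of 242 members. The cyclic AMP response element TGACGTCA was in 5 of the 199 (2.51%), beside 507 of all 27025 entries (1.88%) and 306 of the 9209 tested genes of 2 CPM or more that had an entry (3.32%), both strands searched. The AP-1 motif TGANTCA was in 7 (3.52%), beside 2144 (7.93%) and 437 (4.75%). None of the 4 printed promoters held either motif, and no match says only that these letters are not in the window.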

How the data were processed

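RNA of 24 mouse heart libraries was sequenced, 3 in each of 8 groups, and the groups were taken from the treatment labels. The authors deposited whole-number read counts per Ensembl gene for every library, per the file headers, with and without multiply mapped and duplicate-marked reads, beside RPKM, which the authors scaled by gene length and library size. Per the submitters' processing notes, mm10 was the build; aligner, counter and strand setting are not given in the sources at hand. The tests used the counts that keep duplicates and leave out multiply mapped reads. A symbol was found for 45143 of 46078 gene IDs (98.0%). RPKM served only to order members by level.

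All 24 libraries were fitted together with edgeR 4.0.16 in R 4.3.3 (TMM factors 0.858 to 1.16, filterByExpr with a minimum count of 10 and a minimum total of 15, quasi-likelihood test, 16 residual degrees of freedom). P-values were adjusted by Benjamini-Hochberg over 15128 genes within each comparison, with calls made at an adjusted p under 0.05. Errors of log2 fold changes are the SE of that fit, with n = 3 libraries a group. Alternatives were RLE and library-total scaling, no filter, other read classes, the 2 groups alone, a replicate block, limma-voom (3.58.1), DESeq2 (1.42.0), other limits of mean CPM and leaving out each library. The floor of 3 counts covers counting error only, whereas the SE also covers the spread among libraries.

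Fingers and the KRAB A-box pattern were searched in the longest GENCODE coding sequence of each member, which also gave coordinates, and promoters came from RefSeq. The members and lists were chosen with earlier results of these data known. Members named were the 5 with the highest mean CPM, up to 3 largest rises and 5 largest falls against sham among called members whose libraries did not overlap sham, the 6 smallest p across groups, up to 3 largest called changes each way between 1.5, 3, 6 and 12 h, the genes at the CPM limit, and members of known roles. Zfp358, Zfp53, the members that bound runs and the multiply mapped members were named after their values were seen. Same-numbered libraries of different groups did not pair.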

Additional observations from a re-analysis of the deposited data

Results flagged for a closer look

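Among the 51 named members, 8 were flagged for changes against sham of opposite signs at successive times that also met 2 further conditions. A change against sham was called, and the direct comparison of the times passed the test (edgeR quasi-likelihood, adjusted p under 0.05). Changes of sign without those calls were not counted. Only in Zfp672 and Zfp553 were both changes against sham called. In the others a sign rests on a change that was not called, so a reversal is not shown. Some of the 8 were named for their changes between those same times. No explanation was tested. Zfp623 differed by 1.04 on the log2 scale between 1.5 and 3 h (adjusted p = 0.00276), being at -0.245 and then 0.791 against sham. Zfp438 differed by -1.52 between the same times (adjusted p = 0.000214), at 0.107 and then -1.42, and all 3 libraries at 3 h, at 2.11, 2.51 and 1.37 CPM, lay below every library of sham.

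From 3 to 6 h, Zfp672 differed by 1.31 (adjusted p = 4.86e-08), from 23.0, 26.6 and 21.1 CPM to 56.1, 57.1 and 62.3 CPM, with sham between them at 31.8 to 33.4 CPM. It was at -0.46 and then 0.852 against sham, both called. Zfp553 differed by 1.77 (adjusted p = 6e-05), at -1.11 and then 0.663. Its call against sham at 6 h was lost without any 1 of sham replicates 1, 2 and 3 and of 6 h replicates 1 and 3 (adjusted p of 0.122, 0.0646, 0.0784, 0.0756 and 0.135), and also with a replicate block (0.0508) and scaled to library totals (0.0555), within 0.0109 to 0.135 over all settings. Zfp207 differed by 0.543 (adjusted p = 0.0136), at -0.527 and then 0.0151; the adjusted p was 0.0578 without 3 h replicate 3 and 0.0624 without 6 h replicate 3, within 0.00131 to 0.0624 over all settings.

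In the other direction, Zfp423, a factor of pre-adipocyte commitment, differed by -0.903 from 3 to 6 h (adjusted p = 0.00273), at 0.369 and then -0.534 against sham. Its call against sham at 6 h (adjusted p = 0.0458) was lost under 22 of the 33 alternatives. The adjusted p of that change lay between 0.0108 and 0.207 over all settings. Zfp516, known from brown fat, differed by -0.897 (adjusted p = 0.000385), at 0.689 and then -0.209. From 6 to 12 h Zfp93 differed by 1.37 (adjusted p = 0.00387), at -0.583 and then 0.787. Its call against sham at 12 h (adjusted p = 0.0428) was lost under 8 alternatives, within 0.0142 to 0.217 over all settings.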

How the results depend on the processing

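Of 1361 summary values of the members under the alternatives, 1282 stayed within 1.5 times (counts) or within the spread between libraries (medians), and 79 moved further. Of 201 called pairs of a named member and a comparison, 128 were called under every alternative and 73 were lost under 1 or more, and 0 changed direction. The causes were not tested. With library totals as scaling, against sham, 21 members were lower at 0.5 h (median -0.17), 26 at 1 h, 1 was higher at 1.5 h, and 46 were higher and 9 lower at 12 h (median 0.17). From 1.5 to 3 h 5 were then higher and 13 lower, and from 6 to 12 h 42 and 3 (median 0.31). With no filter, 1 member was higher in ischemia, 3 were higher and 5 lower from ischemia to 0.5 h, 1 was lower from 0.5 to 1 h, and 1 was higher and 1 lower from 1 to 1.5 h. With a replicate block 2 members were higher at 1.5 h; 5 of 24 libraries correlated best with their own number, same-number r lay between -0.179 and 0.199, and no other count over all members moved by over 1.5 times. With limma-voom 2 were higher at 1.5 h and 12 lower from 1.5 to 3 h. DESeq2 called 1 lower from ischemia to 0.5 h and 1 higher from 1 to 1.5 h. With the compared groups alone, 15 were higher and 82 lower at 0.5 h, 38 lower at 12 h, 4 higher and 5 lower from 1.5 to 3 h, and 44 higher from 3 to 6 h. At mean CPM of 5 or more, the medians were -0.19 at 0.5 h, -0.26 at 1.5 h (36 lower), -0.36 at 3 h (70 lower) and -0.049 at 6 h (50 lower), with fewer members. 

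Without each library in turn, against sham, 2 to 8 members were higher and 14 to 55 lower at 0.5 h, 16 to 55 lower at 1 h, 0 to 5 higher and 30 to 75 lower at 1.5 h, and 13 to 30 higher and 15 to 33 lower at 12 h. Between times, 0 to 8 were higher and 0 to 28 lower from ischemia to 0.5 h, 0 to 1 higher from 1 to 1.5 h, 4 to 17 higher and 4 to 28 lower from 1.5 to 3 h, 48 to 102 higher from 3 to 6 h, and 8 to 30 higher and 3 to 12 lower from 6 to 12 h.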

Other observations

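Zfp-named genes under the limit of 2 CPM that still passed the filter on low counts numbered 76. At 3 h 32 of them were called lower and 2 higher against sham, with a median of -1.08, beside 16.9% and 18.4% of all genes. They were not counted among the members above, but they were part of all genes tested. Some also entered the alternative with a lower limit of mean CPM.

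Gene length was compared in all tested genes of 2 CPM or more. At 3 h the median log2 fold change was 0.12 for 4054 genes under 3000 bases, -0.03 for 3504 genes of 3000 to 5000 bases and -0.11 for 4432 genes of 5000 bases or more. For KRAB members of the same lengths the medians were -0.91, -1.09 and -1.18.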
